A study of Sus scrofa with 30 samples.

Results

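The miR-25, miR-92a, miR-92b and miR-363 sequences of porcine endometrium form 1 seed family. Its members were taken by name: every sequence that the study annotated to a hairpin or mature miRNA called mir-25, mir-32, mir-92a, mir-92b or mir-363, whatever the species prefix. Of the 873 annotated sequences, 15 were members, with 5 from miR-25, 5 from miR-92a, 3 from miR-92b and 2 from miR-363, and none was annotated to miR-32, whose mature sequence was not searched for here. MicroRNAs guide Argonaute proteins to messenger RNAs mainly by pairing of their bases 2 to 8, the seed, so miRNAs with 1 seed can share targets. In mammals the family is spread over several loci: miR-92a belongs to the miR-17-92 cluster, miR-92a and miR-363 to its X-linked paralogue, the miR-106a-363 cluster, and miR-25 to the miR-106b-25 cluster inside a host gene. The family is known for restraining the pro-apoptotic BIM, and miR-92a for limiting vessel growth by endothelial cells.

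Small RNAs were sequenced from the endometrium of 30 gilts, 1 library per gilt, at 3 stages (day 12, 16 or 20) of pregnancy (PD12, PD16 and PD20, with 5, 5 and 6 libraries) and of the estrous cycle (CD12, CD16 and CD20, with 4, 5 and 5). All gilts were Hampshire x Duroc crosses aged 7 to 8 months from 1 herd, and the pregnant ones had been inseminated 12 and 24 h after detection of the third estrus. Conceptuses were flushed out on days 12 and 16. On day 20 pregnant endometrium was cut at implantation sites after embryos and trophoblast had been taken off, so PD20 differs from every other group in sampling site and handling as well as in day or status, and in each comparison with PD20 these cannot be told apart. The comparisons ask whether endometrial miRNAs differ between days around the time the pig conceptus attaches, and between pregnant and cyclic gilts of a day. Libraries held 2029729 to 6402731 reads (median 3111079), and 75.3 to 87.2% of them were annotated sequences. Each library was 1 whole piece of tissue, so fewer cells of a type and less RNA per cell cannot be told apart in any value below. P-values measure the spread between these gilts.

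The most abundant form of each member shows how close the sequences are, and where the family can and cannot be split by reads. They are written 5′ to 3′ with T for U as in the read files, and capitals mark bases 2 to 8.
miR-25: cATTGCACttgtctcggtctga
miR-92a: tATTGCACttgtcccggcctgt
miR-92b: tATTGCACtcgtcccggcctcc
miR-363: aATTGCACggtatccatctgta

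The seed ATTGCAC was the same in all 4, and it was carried by 13 of the 15 members and by no other annotated sequence. The other two members, 1 form of miR-25 and 1 of miR-92a, lack the first base, which moves the seed to TTGCACT:
miR-25 without its first base: aTTGCACTtgtctcggtctga
miR-92a without its first base: aTTGCACTtgtcccggcctgt

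Counted from 1 at the 5′ end, miR-92a and miR-92b differed at 3 of 22 bases, T10C, G21C and T22C, with the miR-92a base written first. miR-25 and miR-92a differed at 4 (C1T, T14C, T18C and A22T, miR-25 base first), and miR-25 and miR-92b at 6. miR-363 differed from each of the others at 12 to 13 of 22 bases, so beyond the seed it was a separate sequence. Of the 3 differences between miR-92a and miR-92b, 2 lie in the last 2 bases, and T10C tells shortened forms apart. The RefSeq annotation (Sscrofa11.1) places 1 miR-92a gene beside MIR17, MIR18A, MIR19A, MIR20A and MIR19B-1, and the second beside MIR363-1, MIR19B-2, MIR20B-1, MIR18B and MIR106A. The mature miR-92a is the same from both genes, so its reads cannot be assigned to 1 locus. MIR92B stands alone, with THBS3 and MUC1 as its nearest protein-coding genes.

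Reads were unevenly spread over the members. The canonical miR-25 had 56567 reads over the 30 libraries, canonical miR-92a 46597, canonical miR-92b 5647 and the leading miR-363 form 783. An isomiR is a read of a miRNA with a shifted end or a changed base. The 4 miR-25 isomiRs were a DEL 1 (1 base shorter) at the 3′ end with 3710 reads, the DEL 1 at the 5′ end with 1349, a 3′ DEL 2 with 1129 and a 3′ ADD 1 with 282. The 4 of miR-92a were a 3′ ADD 1 with 6470 reads, the 5′ DEL 1 with 1443, a T22A form with 413 and a 3′ DEL 1 with 281. miR-92b added a 3′ DEL 2 (1013 reads) and a 3′ DEL 1 (547), and miR-363 a 3′ DEL 1 (321 reads, in 28 of the 30 libraries). The miR-363 forms were annotated to its hairpin and not to a mature miRNA.

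On other readouts, several libraries stood apart from their groups. Forms whose last base was replaced by C, such as T22C of miR-92a (10816 reads) and A22C of miR-25 (1966 reads), were scarce in CD16 replicate 3 and PD20 replicate 3. Over 163 miRNAs such forms took 0.144% and 0.0967% of reads there against 2.09 to 5.63% in the other 28 libraries. For miR-92a the shares were 0.145% and 0.251% against 7.10 to 16.2%. PD20 replicate 1 held miR-143 and miR-145, the miRNAs of smooth muscle and stroma, at 395867 normalized reads against 45622 to 72273 in the other 5 PD20 libraries. Its skeletal muscle miRNAs, led by miR-1, were at 40186 against 1416 to 8098. CD16 replicate 5 held them at 16765 against 2035 to 3392 in the other CD16 libraries. They were also uneven in PD12 (8241 in replicate 3 against 1175 to 2478), in CD20 (8771 in replicate 4 against 1111 to 2144) and in CD12 (4595 in replicate 3 against 1628 to 1791). The calls for miR-92b are given below with the fits that leave out 1 library.

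Together the 15 members made up 0.169% of annotated reads, 1674 ± 538 normalized reads (SD, n = 30). A normalized read is 1 read per 1000000 after scaling by the trimmed mean of M-values (TMM). Read counts of miRNAs are not divided by length, since all are about 22 bases. miR-25 gave 49.3% of the family with 825 ± 291 normalized reads, which ranked 41 among 250 summed miRNAs (listed forms of a miRNA added up). miR-92a gave 44.2% with 740 ± 361 and ranked 45, miR-92b 5.67% with 94.9 ± 44.2 (rank 98), and miR-363 0.854% with 14.3 ± 6.73 (rank 170). The family sum was highest on PD16 (2048 ± 736, n = 5), then PD20 (1744 ± 355, n = 6), CD16 (1712 ± 613, n = 5), CD20 (1613 ± 494, n = 5), PD12 (1594 ± 451, n = 5) and CD12 (1233 ± 492, n = 4), and each step in that order was smaller than the SD of either group beside it.

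miR-25, summed over its forms, ran from 513.0 ± 176 normalized reads on CD12 through CD20 (685.6 ± 325), PD12 (775.7 ± 171), PD16 (910.5 ± 320) and PD20 (947.9 ± 234) to 1030 ± 279 on CD16. miR-92a followed another order, from 585.9 ± 348 on CD16 and 587.2 ± 360 on CD12 through PD12 (675.0 ± 290), PD20 (731.3 ± 334) and CD20 (817.3 ± 397) to 1015 ± 428 on PD16. miR-92b was lowest on PD20 (54.5 ± 14.1), then CD16 (84.2 ± 43.1), CD20 (95.5 ± 31.6), PD16 (102.4 ± 36.1) and CD12 (116.4 ± 59.2), and highest on PD12 (128.9 ± 50.3). miR-363 was also lowest on PD20 (10.1 ± 3.3) followed by CD16 (12.1 ± 5.0), PD12 (14.01 ± 6.65), CD20 (14.2 ± 9.9) and CD12 (16.5 ± 6.5), and highest on PD16 (20.1 ± 6.0). In none of the 4 orders did neighbouring groups differ by more than the larger of their SDs.

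**Figure D1:**
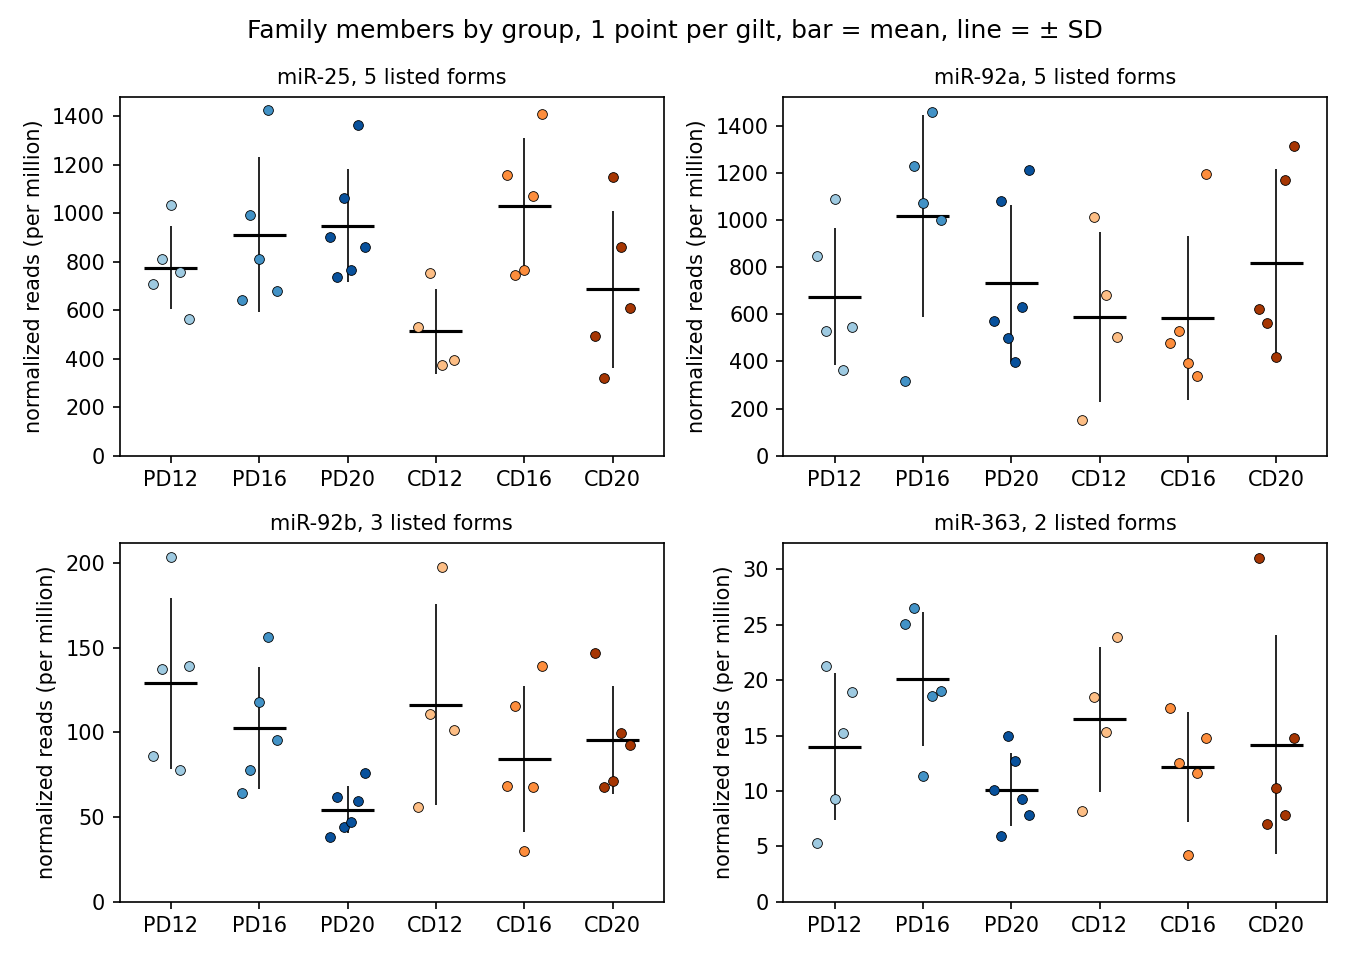
Normalized reads (linear axis from 0) of the 4 summed miRNAs in each group, with 1 point per gilt, the mean as a bar and ± SD as a line. The 6 PD20 libraries of miR-92b lie below every PD12 library, while the groups of miR-25, miR-92a and miR-363 mostly overlap.

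Among the pregnant groups, miR-92b was the member that differed between PD12 and PD20, which differ in sampling site as well as in day. Canonical miR-92b was at 71.0, 109.3, 175.5, 69.2 and 113.2 normalized reads in the 5 PD12 libraries, at 42.5, 53.1, 102.2, 113.6 and 69.5 in PD16, and at 27.6, 40.2, 14.96, 28.5, 29.5 and 57.5 in PD20. All PD20 libraries were below all PD12 libraries, and PD16 overlapped both. The mean fell from 107.6 ± 43.2 on PD12 to 33.1 ± 14.4 on PD20, a log2 fold change of -1.70 (SE 0.352, adjusted p = 0.0448 by the quasi-likelihood test of edgeR, all 3 pregnant days tested jointly). A call needed an adjusted p under 0.05 and a fold change of more than 2. In that comparison 7 of 873 sequences were called (0.802%), of which canonical miR-92b was the only one that fell (0.115%), and 3.32% of sequences had groups that did not overlap. Summed miR-92b fell by 1.23 on the log2 scale (SE 0.279, adjusted p = 0.0408), 1 of 7 calls among 250 summed miRNAs (2.8%), a call lost in 13 of 16 fits without 1 library (all but those without PD12 replicate 4 and PD16 replicates 1 and 4; adjusted p up to 0.179). Both adjusted p lay near the threshold. Over all alternatives, fits without 1 library included, 15 of 25 ended the canonical call and 20 of 26 the summed one. All deposited reads as library size ended both calls. Scaling by RLE, a minimum of 10 CPM and 1 fit of all libraries ended only the summed one. The call of the canonical form was lost in 12 of 16 fits without 1 library (PD12 replicates 1, 2 and 5, PD16 replicates 2 to 5, and PD20 replicates 1 to 5), with log2 fold changes of -1.93 to -1.43 and an adjusted p of up to 0.111, reached without PD20 replicate 3. Without PD20 replicate 1, the library with the high muscle and stroma miRNAs, the fall was 1.62 (adjusted p = 0.0664). Without PD12 replicate 3, the library of its group with the most skeletal muscle miRNAs, the canonical form fell by 1.43 (adjusted p = 0.0427) and summed miR-92b by 0.94 (adjusted p = 0.0967). Leaving out the 2 libraries with few forms ending in a replaced C gave -1.55 (adjusted p = 0.111).

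The step between PD12 and PD16 was small for canonical miR-92b, with a log2 fold change of -0.47 (SE 0.364). From PD16 to PD20 the value was larger but not a call (-1.23, unadjusted p = 0.00223, adjusted p = 0.118), where 0.573% of sequences were called. Against CD20, at 111.0, 56.05, 55.86, 75.7 and 70.0 normalized reads, PD20 had a log2 fold change of -1.15 (adjusted p = 0.0665), and 1.49% of sequences were called. These 2 groups overlapped only in PD20 replicate 6. In cyclic gilts the 3 days overlapped: CD12 libraries were at 45.5, 97.6, 172.7 and 83.3, and CD16 libraries at 55.4, 98.0, 23.6, 49.1 and 113.7. The difference between pregnant and cyclic gilts in the change from day 12 to day 20 was -1.26 (unadjusted p = 0.0388, adjusted p = 0.275) and from day 16 to day 20 -1.32 (unadjusted p = 0.0264, adjusted p = 0.190), neither past the threshold, with 0.115% and 2.41% of sequences called.

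**Figure D2:**
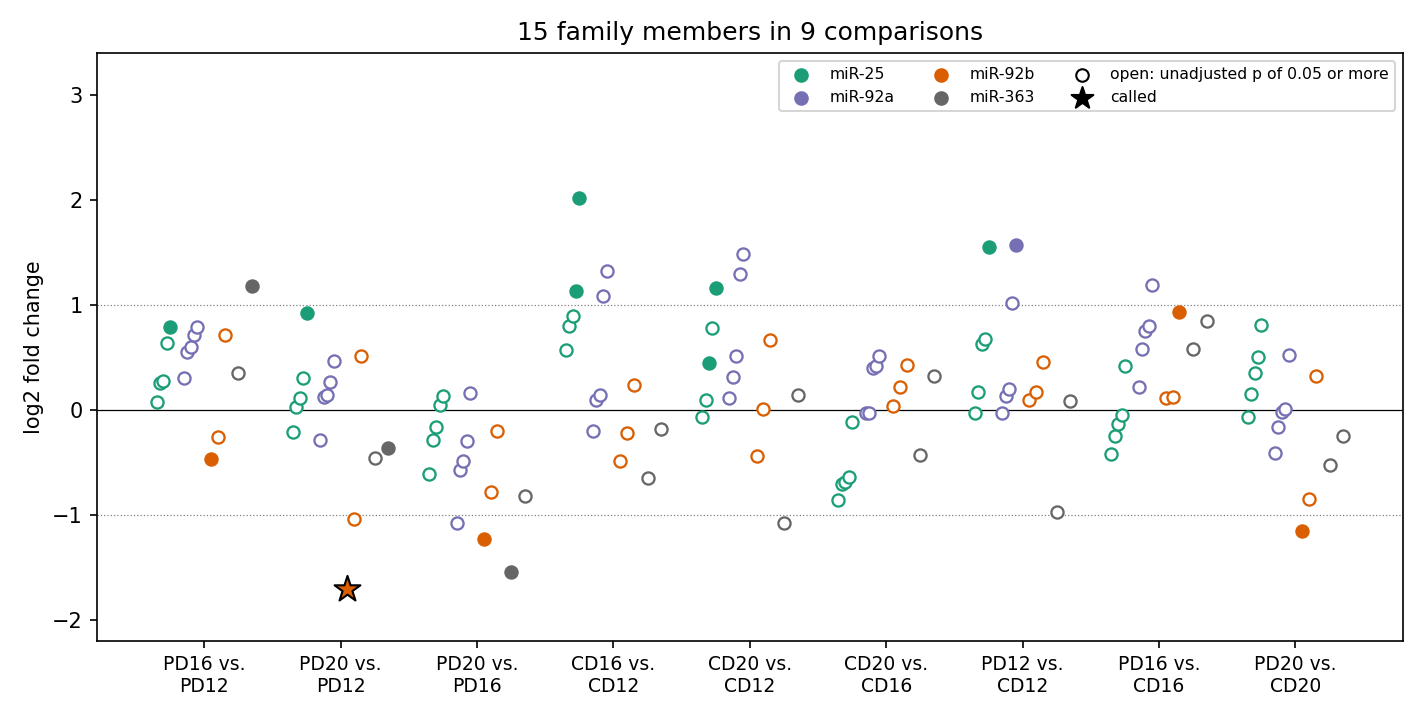
Log2 fold changes of the 15 members in 9 comparisons, coloured by miRNA, with dotted lines at the fold change a call needs. Open points had an unadjusted p of 0.05 or more, filled points less (for days against day 12, the p of the joint test over 3 days). The only call, marked by a star, is canonical miR-92b in PD20 vs. PD12 at -1.70.

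In the reported quasi-likelihood fits of edgeR, the other members gave no call in any of the 9 comparisons or the 2 interactions, and no summed member but miR-92b was called. The miR-25 3′ DEL 2 form, which lacks the last 2 bases, was called higher in CD16 vs. CD12 by the likelihood ratio test of edgeR (log2 fold change 2.02, adjusted p = 0.0409) and by DESeq2 (2.01, adjusted p = 0.0311). The likelihood ratio p is that of 1 joint test of the cyclic days. With the same p, CD20 vs. CD12 (1.16) also met the rule for a call, which is not a separate test of CD20 against CD12. A single fit of all libraries also called this form higher in both comparisons, again by the joint test. Of all summed miRNAs, 1.2% were called in PD16 vs. PD12, 1.6% in PD20 vs. PD16, 1.2% in CD16 vs. CD12, 2% in CD20 vs. CD12, 3.6% in CD20 vs. CD16 and 6.8% in PD20 vs. CD20, 0% on days 12 and 16 between pregnant and cyclic gilts, and 0.8% and 2.8% for the interactions on day 20 against days 12 and 16. In PD16 vs. PD12, with 0.229% of sequences called, 13 members were higher and 2 lower, and their median log2 fold change was 0.56 against 0.05 over all 873. PD20 vs. PD16 went the other way with 3 higher and 12 lower and a median of -0.48 against -0.06. These 2 comparisons share the PD16 libraries. PD20 vs. PD12 had 9 members higher and 6 lower (median 0.11 against -0.01).

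Several miR-25 isomiRs differed in mean without passing the test. The 5′ DEL 1 form, the one with the shifted seed, averaged 12.5 normalized reads on PD12, 21.2 on PD16 and 23.6 on PD20, log2 fold changes of 0.79 and 0.93 against PD12 (joint unadjusted p = 0.0447, adjusted p = 0.254). The 3′ DEL 2 form averaged 5.77 on CD12 and 22.4 on CD16, a log2 fold change of 2.02 (joint unadjusted p = 0.0112, adjusted p = 0.124). CD12 and CD16 did not overlap for it, as for 5.5% of all sequences, and 0.115% of sequences were called. On day 12 it was higher in pregnant gilts by 1.55 (unadjusted p = 0.0234, adjusted p = 0.678), again without overlap, where 2.18% of sequences had none. Its interaction for day 20 against day 12 was -1.41 (unadjusted p = 0.0308, adjusted p = 0.272).

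Canonical miR-25 stood at 466.8, 659.6, 329.5 and 350.8 normalized reads in CD12, 1055, 646.3, 703.0, 961.4 and 1267 in CD16, and 443.1, 283.4, 1040, 787.4 and 525.2 in CD20. CD16 lay above CD12 except for 1 CD12 library, and the log2 fold change was 1.13 (unadjusted p = 0.0371 in the joint test, adjusted p = 0.178). Without CD16 replicate 5, the library with high skeletal muscle miRNAs, it was 0.91 (adjusted p = 0.354), and for the 3′ DEL 2 form 1.84 (adjusted p = 0.246). The pregnant groups overlapped throughout, with 512.3 to 961.7 on PD12 (median 693.0), 566.2 to 1298 on PD16 (median 716.4) and 649.5 to 1247 on PD20. The change of summed miR-25 from day 16 to day 20 differed between pregnant and cyclic gilts by 1.08 (unadjusted p = 0.0272, adjusted p = 0.154).

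Canonical miR-92a varied widely between gilts of a group. It was at 724.6, 441.2, 934.9, 299.4 and 455.9 normalized reads in PD12, 274.2, 1018, 908.5, 1233 and 814.6 in PD16, and 489.1, 918.7, 426.3, 333.5, 530.0 and 1026 in PD20. Cyclic libraries ranged as far, with 117.8, 873.8, 549.1 and 420.9 in CD12, 414.0, 428.1, 330.3, 275.3 and 977.9 in CD16, and 537.0, 476.6, 357.9, 1024 and 1115 in CD20. All 6 groups overlapped. Of its isomiRs, the 3′ DEL 1 form was higher in PD12 than in CD12 by a log2 fold change of 1.57 (unadjusted p = 0.0460, adjusted p = 0.678). The T22A form did not overlap between CD20 and CD12 (log2 fold change 1.48, joint unadjusted p = 0.0718, adjusted p = 0.254), as for 4.47% of sequences.

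Levels of miR-363 were low, and its summed forms had 9 to 82 reads per library. Its leading form was at 3.75, 14.8, 9.24, 13.6 and 13.2 normalized reads in PD12, 20.5, 16.5, 8.78, 8.56 and 11.9 in PD16, and 6.28, 4.14, 13.7, 10.4, 7.47 and 4.77 in PD20. The cyclic libraries were at 7.67, 6.41, 13.4 and 14.4 in CD12, 11.03, 9.61, 2.83, 9.27 and 10.4 in CD16, and 26.9, 4.58, 6.05, 7.80 and 11.4 in CD20, so all 6 groups overlapped. The 3′ DEL 1 form had log2 fold changes of 1.18 in PD16 vs. PD12 and -0.36 in PD20 vs. PD12 (joint unadjusted p = 0.0373, adjusted p = 0.244), and of -1.54 in PD20 vs. PD16 (unadjusted p = 0.0166, adjusted p = 0.261).

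No member was called between pregnant and cyclic gilts on day 12 or 16. On day 12, 12 members were higher in pregnant gilts and 3 lower, and no sequence of the 873 was called by edgeR (53, or 6.07%, had an unadjusted p under 0.05). On day 16 the split was 11 to 4, again with 0 calls of 873 (95, or 10.9%, unadjusted). There the miR-92b 3′ DEL 2 form was higher in pregnant gilts by 0.94 (unadjusted p = 0.0392, adjusted p = 0.412). Day 20 gave 7 higher and 8 lower.

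The listed forms held only part of what had been sequenced from these miRNAs. When every deposited read that starts with the first 18 bases of the leading form was counted, miR-25 had 169 forms and 88223 reads, of which 69.9% were listed. miR-92a had 355 forms and 104463 reads (51.5% listed), miR-92b 378 forms and 19596 reads (36.8% listed), and miR-363 32 forms and 2462 reads (44.8% listed). The median over 205 miRNAs was 70.3%. The canonical form took its smallest share in miR-92b: 28.8% of its reads were canonical, 40.4% extended, 8.4% shortened and 22.4% ended in other bases. Canonical reads took 64.1% of miR-25, 44.6% of miR-92a and 31.8% of miR-363.

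The ends of miR-92b differed between PD20, the group cut at implantation sites, and the other groups. Its canonical share of all forms was 38.1, 34.3, 29.5, 44.4 and 32.3% in PD12, 26.2, 25.1, 32.6, 23.9 and 29.1% in PD16, and 17.2, 21.4, 9.68, 18.2, 17.4 and 19.2% in PD20. In the cyclic libraries it was 33.2, 27.4, 29.7 and 29.8% on CD12, 27.3, 33.2, 30.7, 35.6 and 34.4% on CD16, and 37.1, 32.9, 32.6, 25.8 and 26.97% on CD20. Each of the 6 PD20 libraries was below each of the other 24, which held for 2 of the 74 miRNAs with at least 100 reads in every library (2.7%), the other being let-7b. PD20 and PD12 alone did not overlap for 8.11% of them, and PD20 and CD20 for 6.76%, miR-25 and miR-92b among them. All of these, 6 and 5 miRNAs, had the lower share on PD20. The shares rest on 163 to 1389 reads per library. For example, 9.68% was 36 of 372 reads (95% Wilson interval 7.07 to 13.1%) and the highest PD20 share 68 of 318 (17.2 to 26.2%), intervals that cover counting error only. The group means were 35.7 ± 5.8% on PD12, 27.4 ± 3.5% on PD16, 17.2 ± 4.0% on PD20, 30.0 ± 2.4% on CD12, 32.2 ± 3.3% on CD16 and 31.1 ± 4.7% on CD20.

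**Figure D3:**
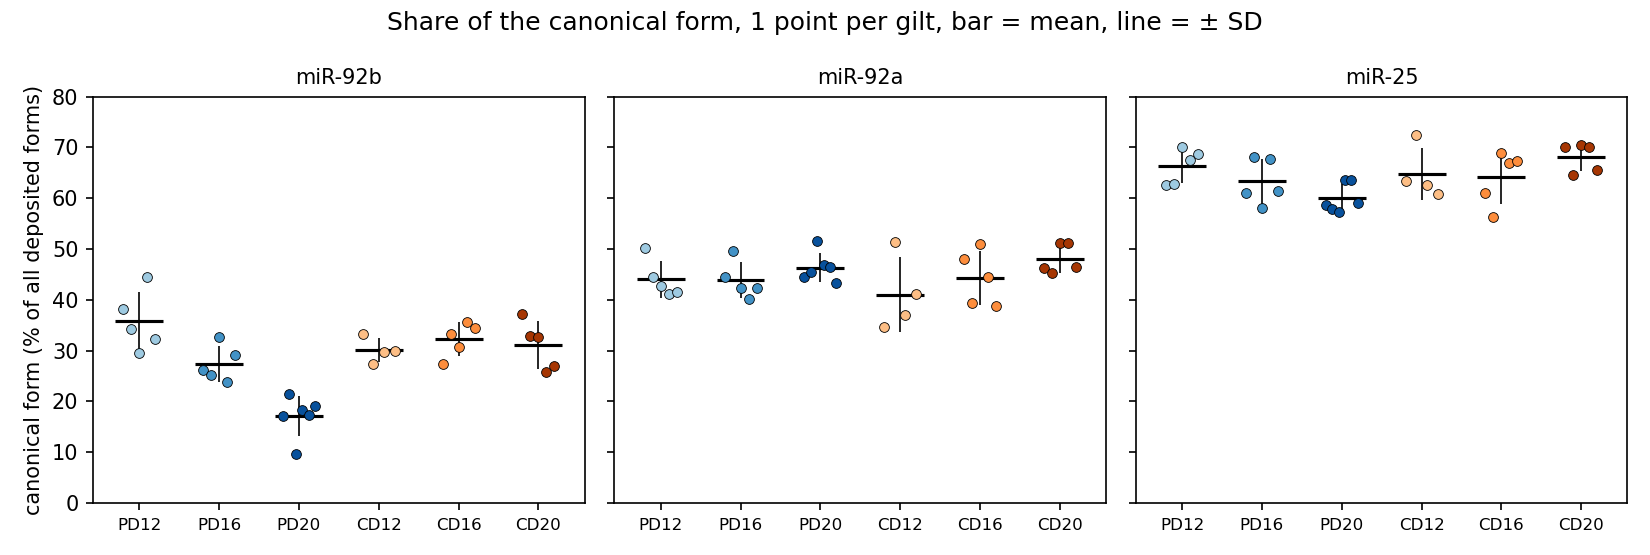
Canonical form as a percentage of all deposited reads of miR-92b, miR-92a and miR-25, with 1 point per gilt, the mean as a bar and ± SD as a line. The 6 PD20 points of miR-92b lie between 9.68 and 21.4%, under all 24 other miR-92b points, while PD20 overlaps every other group for miR-92a, and every group but CD20 for miR-25 (57.2 to 63.6% on PD20, 64.5 to 70.5% on CD20).

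The log2 ratio of canonical reads to all other forms was tested with limma in 74 miRNAs with at least 100 such reads in every library, a test that was chosen after the data had been seen. Here a call is an adjusted p under 0.05. For miR-92b the ratio fell by 1.45 from PD12 to PD20 (SE 0.198, adjusted p = 5.49e-06), the lowest value of the 74 miRNAs, whose median was -0.21 and of which 8 were called (10.8%). PD20 also had less canonical miR-92b than PD16 (-0.89, SE 0.198, adjusted p = 0.00878, 9.46% called) and than CD20 (-1.15, SE 0.198, adjusted p = 0.000281, 4.05% called). The medians over the 74 miRNAs were -0.08 and -0.24 there. PD16 vs. PD12 gave -0.56 (adjusted p = 0.218, 0% called, with an unadjusted p of 0.0123 for miR-92b). The change from day 12 to day 20 differed between pregnant and cyclic gilts by -1.51 (SE 0.296, adjusted p = 0.00170), and miR-92b was the only one of the 74 called there (1.35%). The interaction for day 20 against day 16 was -0.81 (adjusted p = 0.0917, 0% called, with an unadjusted p of 0.00900 for miR-92b). No cyclic comparison was called for miR-92b (smallest adjusted p = 0.762, with 0%, 6.76% and 5.41% of miRNAs called in CD16 vs. CD12, CD20 vs. CD12 and CD20 vs. CD16). All 3 calls between groups held in 30 of 30 fits without 1 library. The largest adjusted p was 4.92e-05 for PD20 vs. PD12, 0.0351 for PD20 vs. PD16 and 0.00219 for PD20 vs. CD20, and it was 0.00679 for the interaction of day 20 against day 12. Without CD16 replicate 3 and PD20 replicate 3 they were -1.27 (adjusted p = 8.31e-06), -0.71 (0.0274) and -0.96 (0.000613), and the interaction was -1.33 (0.00134). PD20 replicate 1, at 17.2%, did not stand apart from the other PD20 libraries in this share.

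miR-92b reads of all forms together changed less than the canonical form. They averaged 360 ± 188 normalized reads on PD12, 285 ± 109 on PD16 and 212 ± 52.6 on PD20, against 379 ± 178, 249 ± 127 and 251 ± 66.1 on CD12, CD16 and CD20. PD20 vs. PD12 was -0.76 on the log2 scale (SE 0.318, adjusted p = 0.313), not a call, with 0.976% of 205 miRNAs called. Counting only canonical reads therefore gave a larger difference (-1.70) than counting all of them. The same kind of test on the listed isomiRs alone gave -1.78 in PD20 vs. PD12 (SE 0.346, adjusted p = 0.00204, 10.2% of 108 miRNAs called) and -1.22 in PD20 vs. CD20 (adjusted p = 0.0331, 4.63% called) when at least 20 reads were required. The latter call was lost in 5 of 30 fits without 1 library (PD20 replicates 3 and 5, and CD20 replicates 1 to 3), with an adjusted p of up to 0.131, and the former in none. Of 82 miRNAs with at least 100 listed reads, among which miR-92b was not, 13.4% were called in PD20 vs. PD12 and 6.1% in PD20 vs. CD20, and neither miR-25 nor miR-92a was called there or in another comparison. In the test on all forms the miR-25 ratio was -0.40 in PD20 vs. PD12 (adjusted p = 0.115) and -0.52 in PD20 vs. CD20 (adjusted p = 0.0549), and miR-92a was called in no comparison.

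Reads of miR-92b that matched fewer than all canonical bases, counted from base 1 to the first mismatch, took a larger mean share on PD20. This count does not tell a shortened end with a new tail from a changed base near the end. The canonical form and 3 such forms are shown to make the ends visible, with the seed in capitals as above. The last form shown has 22 bases, so it could as well be a canonical read with its last base changed.
canonical: tATTGCACtcgtcccggcctcc
DEL 2: tATTGCACtcgtcccggcct
DEL 2 with a tail of A: tATTGCACtcgtcccggcctaaa
DEL 1 with a tail of A: tATTGCACtcgtcccggcctca

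Reads matching fewer than the 22 canonical bases made up 29.8, 46.2, 61.0, 54.3, 58.8 and 32.7% of miR-92b in the 6 PD20 libraries, 47.1 ± 13.4% on average. They made up 17.9 to 34.2% on PD12 (26.7 ± 5.9%), 23.6 to 37.1% on PD16 (32.2 ± 5.6%), 26.8 ± 4.4% on CD12, 31.6 ± 4.1% on CD16 and 32.3 ± 3.2% on CD20. PD20 replicates 1 and 6 lay among the other groups, and the other 4 above all of them. Reads whose match ended 2 or more bases before the canonical end took 16.7 to 33.7% on PD20 (25.9 ± 7.1%) and 7.23 to 14.2% on PD12 (11.4 ± 2.6%). The 2 groups did not overlap, as for 5 of the 74 miRNAs (6.76%). The DEL 2 form alone took 4.05 ± 1.38% on PD12, 7.31 ± 2.93% on PD16, 9.61 ± 4.36% on PD20 and 5.57 ± 1.86% on CD20. The single form shown above as DEL 2 with a tail of A, whose tail is AAA, had 140 reads in all. It took 2.14 ± 1.53% of miR-92b on PD20 and 0.27 to 0.72% in the means of the other groups. Reads matching fewer than the 22 canonical bases and followed only by A took 12.4 ± 6.0% on PD20 and 6.1 ± 2.3% on PD12. Those followed only by T took 7.6 ± 1.4% and 5.1 ± 1.4%, and those with nothing after the match 12.7 ± 5.1% and 7.1 ± 1.9%. PD12 and PD20 overlapped in the DEL 2 form and in each of these 3 kinds, and all shares by kind of end are given without a test.

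**Figure D4:**
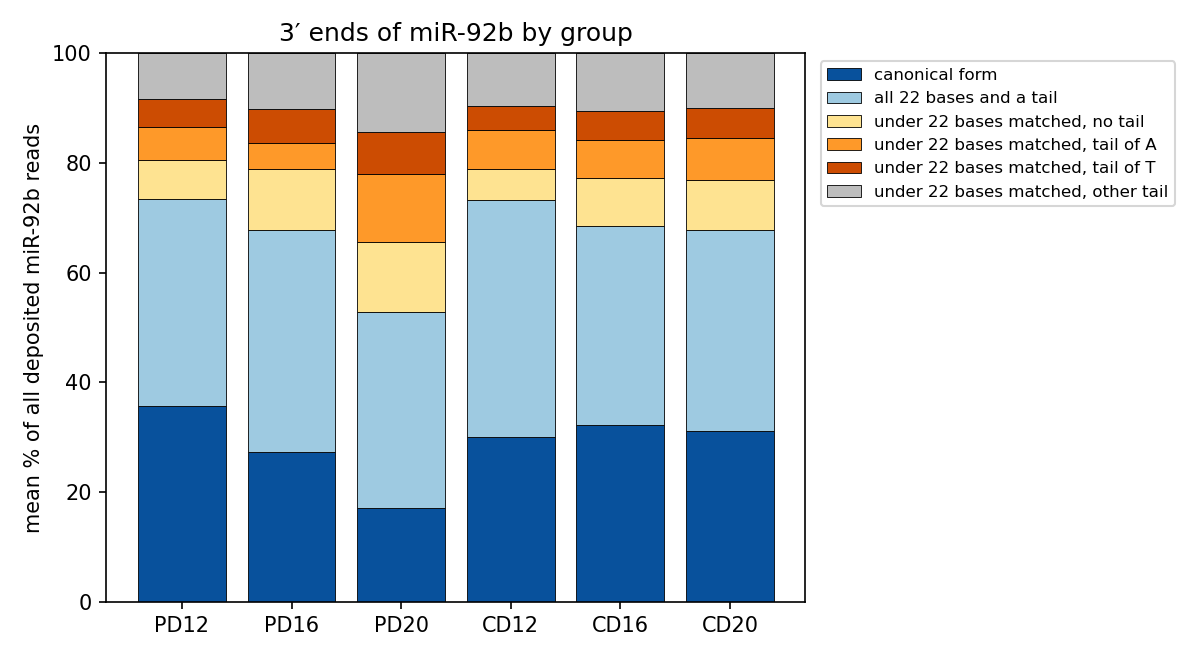
Mean percentage of all deposited miR-92b reads by kind of 3′ end in each group, as stacked bars from 0 to 100%. The canonical part is smallest on PD20 (17.2%), where reads matching under 22 bases, drawn in yellow, orange, red and grey, reach 47.1%.

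Within a library, the ratio of 2 miRNAs does not depend on the scaling of libraries. Listed miR-92b reads were 20.4 ± 6.46% of listed miR-92a reads on PD12 (10.2 to 25.96%), 11.6 ± 5.23% on PD16 and 8.14 ± 2.34% on PD20 (5.74 to 11.9%). They were 24.3 ± 11.3% on CD12, 15.1 ± 5.86% on CD16 and 13.6 ± 6.75% on CD20. PD12 and PD20 overlapped in PD12 replicate 1. The mean log2 ratio on PD20 less that on PD12 was -1.30, or -1.85 with canonical reads only and -0.69 with all deposited forms. miR-25 reads were 129 ± 51.7% of miR-92a reads on PD12, 105 ± 55.8% on PD16, 153 ± 68.1% on PD20, 140 ± 143% on CD12, 203 ± 80.9% on CD16 and 106 ± 95.5% on CD20, with overlap between all groups.

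**Figure D5:**
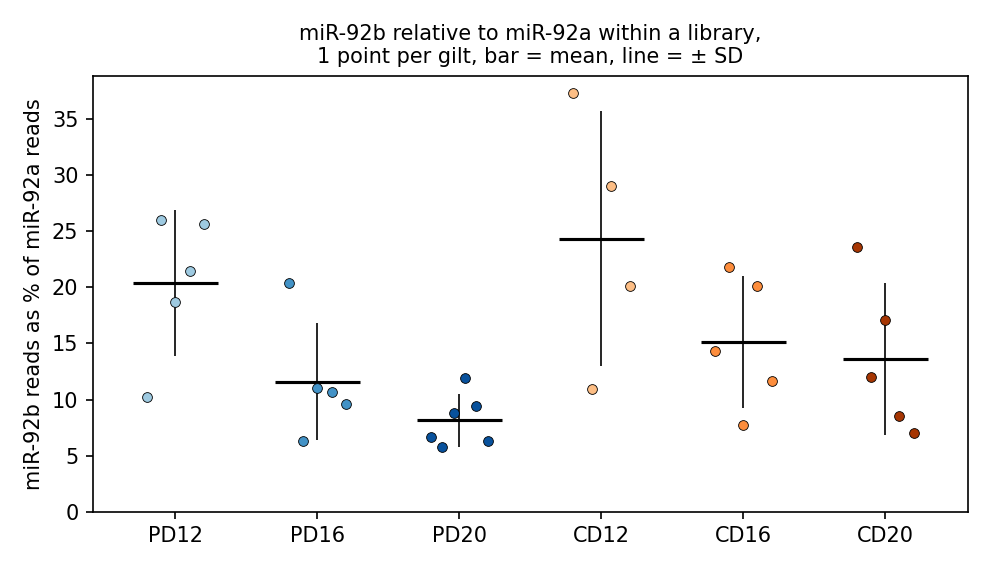
Listed miR-92b reads as a percentage of listed miR-92a reads in each library, with 1 point per gilt, the mean as a bar and ± SD as a line. PD20 libraries lie between 5.74 and 11.9%, and 4 of the 5 PD12 libraries lie above them.

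In the reported quasi-likelihood fits of edgeR, some cluster mates of the family were called in comparisons where no member was. Alternative fits did call a member in CD20 vs. CD12 (a miR-25 form, by the joint test of the cyclic days) and in PD20 vs. CD20 (canonical miR-92b). Of the miR-17-92 cluster, miR-17, miR-19b and miR-20a were among the annotated sequences (3 of 5 looked for, in 5 sequences), of the miR-106a-363 cluster miR-106a (1 of 3, at 4.33 normalized reads on average), and of the miR-106b-25 cluster miR-106b and miR-93 (2 of 2, in 13 sequences). miR-17-5p, which promotes proliferation in many cells, was at 120 ± 86.2 normalized reads on CD20 and 23.4 ± 2.52 on CD12. It rose by a log2 fold change of 2.36 (edgeR, adjusted p = 0.0120 in the joint test of the cyclic days, 0.458% of sequences called). The contrast of CD20 with CD12 alone had an adjusted p of 0.0484 (edgeR). miR-17-5p was also higher on CD20 than on CD16 by 2.32 (adjusted p = 0.0251, 0.458% called). Its call against CD12 was lost without CD20 replicate 2 (adjusted p = 0.0678), and the call against CD16 in 6 of 14 fits without 1 library (CD16 replicates 1, 2, 3 and 5, and CD20 replicates 1 and 2, adjusted p up to 0.104). Summed miR-17 rose by 2.25 and 2.34 in the same comparisons (adjusted p = 0.00280 in the joint test and 0.00746, kept in 14 of 14 fits). It was lower on PD20 than on CD20, with a log2 fold change of -1.55 (adjusted p = 0.0438, 6.8% of summed miRNAs called). One miR-106b form was higher on CD20 (65.2 ± 91.7) than on CD16 (4.90) by 3.64 (adjusted p = 0.0258) and lower on PD20 (8.15) than on CD20, with a log2 fold change of -3.002 (adjusted p = 0.0486, 1.49% called). Its SD on CD20 was larger than its mean, its call against CD16 was lost in 7 of 14 fits without 1 library (all CD16 libraries and CD20 replicates 1 and 2), and miR-17, miR-20a and the miR-106 forms are close in sequence. The calls of this form and of summed miR-17 in PD20 vs. CD20 were each lost in 7 of 11 fits (PD20 replicates 1, 2, 3, 5 and 6, and CD20 replicates 1 and 2), with an adjusted p of up to 0.145 and 0.124. Summed miR-20a was higher on CD20 than on CD12 by 1.596 (adjusted p = 0.0362 in the joint test of the cyclic days, 2% of summed miRNAs called). The contrast of CD20 with CD12 alone was not a call (edgeR, adjusted p = 0.0959). Summed miR-20a was higher on CD20 than on CD16 by 1.62 (adjusted p = 0.0362, 3.6% called). The joint call and the call against CD16 were each lost in 7 of 14 fits (CD12 replicates 2 and 4, CD16 replicates 1, 2 and 5, and CD20 replicates 1 and 2). The cluster's summed level varied between the CD20 libraries, with 2998, 2344, 1406, 972 and 841 normalized reads. The summed level of the leukocyte miRNAs listed below was 333 to 565 on CD20, 150 to 300 on CD12 and 69.4 to 236 on CD16. Most of it was miR-146a (means of 318, 153 and 96.3), and the name of the list does not show that leukocytes were more numerous. Over the 15 sequences of this list the median log2 fold change was 1.19 in CD20 vs. CD12 and 1.49 in CD20 vs. CD16. In each, 1 sequence was called higher (edgeR, smallest adjusted p = 0.0446 in the joint test of the cyclic days and 0.0251). The part of this list in the change of miR-17 was not tested. In the interaction of day 20 against day 16, 1 sequence of the miR-17-92 cluster and 1 of the miR-106b-25 cluster were called lower. Their smallest adjusted p were 0.0452 and 0.0431 (edgeR), and the share of all sequences called there is given above. No form of miR-92a was called in these comparisons or that interaction, and whether miR-92a and miR-17 differ in their change was not tested.

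Markers of several cell types were counted beside these results. The 7 epithelial miRNAs looked for, among them the miR-200 family, were all present, led by miR-200c at 5209 normalized reads, as was miR-126 of endothelium at 3535. Among the erythrocyte miRNAs 3 of 3 were found, led by miR-451 at 1267. Of 5 leukocyte miRNAs 4 were found, led by miR-146a, while miR-223 was not among the 873 sequences. Of 5 skeletal muscle miRNAs 3 were found, led by miR-1 at 4635, while miR-133a and miR-133b were not. The least abundant, miR-206, was at 4.41. The summed level of this list was nearly all miR-1, and its name does not show that skeletal muscle was in the tissue. Both smooth muscle and stroma miRNAs were found, led by miR-143 at 73155. The 5 embryonic miRNAs looked for, miR-302 among them, had no sequence under their names among the 873 used here and were not analysed. The paper does name miR-302, so this search by name does not show that they were absent, and their levels are not known here. From PD12 to PD20 the summed epithelial level was 12588 ± 2885 and 11724 ± 3182, the endothelial 3226 ± 490 and 3913 ± 606, the leukocyte 190 ± 67.2 and 312 ± 116, and the erythrocyte 1199 ± 426 and 2190 ± 1177. The smooth muscle and stroma level was 62079 ± 14649 and 115554 ± 137812, or 59492 ± 12957 without PD20 replicate 1. The skeletal muscle level was 3097 ± 2919 and 9980 ± 14977, or 3939 ± 2585 without that library. The median log2 fold change from PD12 to PD20 was 1.64 over the 8 skeletal muscle sequences, 0.79 over the 15 leukocyte, 0.71 over the 29 smooth muscle and stroma, 0.07 over the 17 endothelial, -0.07 over the 16 erythrocyte and -0.48 over the 45 epithelial sequences, against -0.01 over all 873. Without PD20 replicate 1 these medians were 0.09 for skeletal muscle, 0.79 for leukocytes, -0.03 for smooth muscle and stroma, 0.05 for endothelium, -0.09 for erythrocytes and -0.35 for epithelium, against -0.02. No sequence of these lists was called in PD20 vs. PD12 with or without that library. In PD20 vs. PD16, 1 smooth muscle and stroma sequence was called higher (edgeR, smallest adjusted p of the list 0.0314). The medians there were 1.19 for that list and 2.21 for skeletal muscle. In PD20 vs. CD20, 3 epithelial sequences and 1 leukocyte sequence were called lower (smallest adjusted p 0.00159 and 0.0368). Their medians were 0.04 and -0.39, against 0.89 for smooth muscle and stroma and 1.77 for skeletal muscle. The epithelial miRNAs went both ways between these 2 groups. Means of miR-205, miR-141, miR-429 and miR-200a were lower on PD20 (miR-205 at 5.95 against 54.8 on CD20). Means of miR-200b, miR-200c and miR-203 were higher (miR-200c at 5073 against 3208), so these calls do not describe epithelium as a whole. The part of these lists in the changes of miR-92b was not tested.

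Across the 30 libraries, the summed miRNAs whose standardised log2 levels ran closest to each member were ranked by the mean absolute difference, over 175 candidates of at least 10 normalized reads. This is a description of libraries that share depth and tissue makeup. Closest to miR-25 were miR-382 (0.476), miR-183 (0.589) and let-7a (0.590), where the median candidate was at 1.13. Closest to miR-92a were a second group of miR-181a hairpin forms (0.437), miR-200a-5p (0.469) and miR-30a-3p (0.536), with a median of 1.14. For miR-92b they were a second group of miR-30d hairpin forms (0.633), miR-19b (0.678) and miR-744 (0.716), with a median of 1.06. For miR-363 they were miR-504 (0.738), miR-182 (0.774) and miR-107 (0.827), with a median of 1.11.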

How the data were processed

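Raw read counts of every distinct sequence per library were deposited. The authors had joined 2 sequencing runs, kept reads whose bases all had a phred score over 20, removed adapters, discarded reads under 17 bases and collapsed identical reads; no normalization was applied. Libraries were run in 3 pools. Which library was in which pool is not known here, so pool and group could not be compared. The pig genome build used by the authors was Sscrofa10.2, and no coordinates are given here. Names came from the study's list of 873 annotated sequences, whose fold change and p-value columns hold the authors' own comparisons and were not used. The list was filtered on reads per group by the authors.

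Counts of the 873 sequences were TMM-normalized and tested with edgeR 4.0.16 (quasi-likelihood, Benjamini-Hochberg over all sequences) in R 4.3.3; days were tested jointly within status, pregnant vs. cyclic gilts within a day, and interactions over all 30 libraries. Ends were tested with limma 3.58.1 on log2((canonical + 0.5)/(other forms + 0.5)). Where listed isomiRs alone were used, at least 100 reads were required, and miR-92b fell under that minimum. Summed miRNAs were forms of 1 name that share 12 bases. DESeq2 1.42.0 was an alternative. Counting used Python 3.11.15 with pandas 2.3.3 and numpy 2.4.6, figures matplotlib 3.10.9. Tests were checked on simulated data. No 2 libraries were identical. Leading forms, called members and members with an unadjusted p under 0.05 are named. Members, cluster mates, marker lists and tests were chosen with earlier results of these data known.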

Additional observations from a re-analysis of the deposited data

Results flagged for a closer look

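Of 84 groups of values, 7 held 1 library far from the others by the test of Dixon, which flags about 1 in 20 groups by chance. Summed miR-92a was at 1193 normalized reads in CD16 replicate 5 against 336 to 530 in the other CD16 libraries, and its canonical form at 978 against 275 to 428. The leading miR-363 form was at 2.83 normalized reads in CD16 replicate 3 against 9.27 to 11.03. The canonical share of miR-92b was 9.68% in PD20 replicate 3 against 17.2 to 21.4%. Forms of miR-25 with the last base replaced by C took 2.91% in CD12 replicate 3 against 1.93 to 2.08%. In CD16 replicate 3 such forms took 0.145% of miR-92a against 9.65 to 11.8%, and 0.144% over all miRNAs against 4.01 to 4.66%.

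The change of the canonical share of miR-92b from day 12 to day 20 differed between pregnant and cyclic gilts, with an interaction of -1.51 on the log2 scale (limma, adjusted p = 0.00170). Outside the annotated list, the most frequent sequence with the family seed that starts with no member's first 18 bases was tATTGCACattactaagttgc, with 167 reads in 27 of the 30 libraries (seed in capitals). It was not compared with mature miR-32, whose sequence was not at hand, so whether these reads belong to the family was not tested. Reads carrying the seed numbered 217704, and 98.6% of them were forms of the members.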

How the results depend on the processing

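The count of called members in PD20 vs. PD12 was 1 and became 0 with all deposited reads as library size (canonical miR-92b adjusted p = 0.0586) and without CD16 replicate 3 and PD20 replicate 3 (0.111, chosen after seeing the data), and it was 0 to 1 without 1 library each. Its adjusted p was 0.00287 by the likelihood ratio test, 0.000920 by DESeq2, 0.0473 with RLE, 0.0371 at 10 CPM or more and 0.0382 in 1 fit of all libraries. The replicate block gave 0 calls of sequences and 0 of summed miRNAs (adjusted p = 0.0721 for canonical miR-92b). Same-numbered libraries were in the median no more alike than others, with correlations of -0.039 over 70 same-numbered pairs and 0.0016 over 304 others. The same-numbered pairs ran from -0.61 to 0.63, and whether some numbers pair gilts was not tested. Summed miRNA calls, 1 as reported, were 0 with RLE, all deposited reads, 10 CPM, 1 fit of all libraries, all deposited forms or the 2 libraries left out, and 0 to 1 without 1 library each. Elsewhere members called rose from 0 to 1. Canonical miR-92b was called lower in PD20 vs. PD16 by the likelihood ratio test and in PD20 vs. CD20 by that test and DESeq2. The miR-25 3′ DEL 2 form was called higher in CD16 vs. CD12 by the likelihood ratio test, DESeq2 and 1 fit of all libraries. The first and last of these, whose p is joint over the cyclic days, also called it in CD20 vs. CD12. Calls of 3′ ends, 0 as planned, were 2 at 20 listed reads or more (miR-92b, -1.78 in PD20 vs. PD12, adjusted p = 0.00204, and -1.22 in PD20 vs. CD20, adjusted p = 0.0331) and 3 with all deposited forms. The log2 ratio of miR-92b to miR-92a moved from -1.30 to -1.85 with canonical reads and -0.69 with all deposited forms, and was -1.53 to -1.19 without 1 library each. The miR-363 3′ DEL 1 form reversed in PD20 vs. PD12 to 0.026 without PD12 replicate 2, within a range of -0.65 to 0.026 without 1 library each. The causes were not tested. Of 584 single values under alternatives, 540 kept direction and side of the threshold, 35 lost a call, 8 gained one and 1 reversed. Depth limits the values of miR-363, with 9 to 82 reads per library.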
